A study of Homo sapiens with 6 samples.

Results

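Kinesins are the motor proteins that walk along, or take apart, microtubules, and they were followed here in MDA-MB-231 cells with and without knockdown of PELP1. All rows of the count tables with a KIF or KIFC gene symbol were taken, which gave 42 kinesins among 23228 genes. The symbol of KIFAP3, an accessory subunit, and that of CENPE, a mitotic kinesin named as a centromere protein, did not match this rule, and both are given only as partners. MDA-MB-231 is a human triple negative breast cancer line. The control group consisted of 3 replicates stably expressing a control non-targeted shRNA, and the PELP1-KD group of 3 replicates stably expressing a PELP1 shRNA, all under puromycin selection. Each group carried a single shRNA construct, and the labels do not say that replicates were selected or grown separately, so that p-values measure the spread between these replicates, which may be technical. Total RNA was made into stranded mRNA libraries and sequenced as single reads of 50 bases, and the number of reads on each gene was deposited for each replicate.

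The kinesins were divided by the work they are best known for. The mitotic kinesins, 15 genes, build and slide the spindle, move chromosomes or complete cytokinesis, and they are made mainly in dividing cells. The transport kinesins, 15 genes, carry vesicles, organelles, mRNA or ciliary cargo, and many of them are best known from neurons. The other 12 act in cilia, in signaling or at microtubule ends. Several mitotic kinesins are drug targets in oncology, among them KIF11, whose loss blocks separation of the spindle poles. Genes needed in mitosis commonly carry a short promoter element, TTTGAA or TTTAAA, called the cell cycle genes homology region (CHR), near their start site. The MuvB-based complexes, together with E2F4, MYBL2 or FOXM1, act on such genes through the CHR, and NF-Y acts through neighbouring CCAAT elements.

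The promoters of the mitotic kinesins with a significant change are shown because the CHR was found in most mitotic and few transport kinesins, together with that of KIF5B, the most abundant transport kinesin. Each line holds the 100 bases before and the 50 bases from the start site, read 5′ to 3′ along the gene from the RefSeq promoter table on GRCh38.p14. Capitals mark the CHR, in either of its spellings, and the CCAAT element. Both were searched on both strands, so that ATTGG is a CCAAT element on the other strand. KIF5B also holds a TTTGAA, at -140 from the start, which lies outside the bases shown.
KIF20B, chr10:89701490-89701639, plus strand: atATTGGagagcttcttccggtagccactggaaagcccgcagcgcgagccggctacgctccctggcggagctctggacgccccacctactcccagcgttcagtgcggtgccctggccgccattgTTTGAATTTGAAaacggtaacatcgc
KIF18A, chr11:28108107-28108256, minus strand: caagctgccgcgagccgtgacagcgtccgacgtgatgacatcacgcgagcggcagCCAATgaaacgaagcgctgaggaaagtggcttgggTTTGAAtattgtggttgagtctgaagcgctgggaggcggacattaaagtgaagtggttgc
KIF20A, chr5:138179012-138179161, plus strand: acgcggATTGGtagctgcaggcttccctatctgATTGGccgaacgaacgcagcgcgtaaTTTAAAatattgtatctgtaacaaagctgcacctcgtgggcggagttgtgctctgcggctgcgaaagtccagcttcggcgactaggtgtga
KIF11, chr10:92593030-92593179, plus strand: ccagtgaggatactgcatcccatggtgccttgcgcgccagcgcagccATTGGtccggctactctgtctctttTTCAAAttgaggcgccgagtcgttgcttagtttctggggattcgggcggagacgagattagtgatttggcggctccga
KIF23, chr15:69414249-69414398, plus strand: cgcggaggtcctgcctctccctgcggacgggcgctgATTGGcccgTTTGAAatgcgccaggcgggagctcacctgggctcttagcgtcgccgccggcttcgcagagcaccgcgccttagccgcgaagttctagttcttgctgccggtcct
KIFC1, chr6:33391723-33391872, plus strand: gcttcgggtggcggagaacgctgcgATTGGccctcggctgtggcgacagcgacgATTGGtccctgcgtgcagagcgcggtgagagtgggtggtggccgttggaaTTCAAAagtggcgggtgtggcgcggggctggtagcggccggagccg
KIF5B, chr10:32056376-32056525, minus strand: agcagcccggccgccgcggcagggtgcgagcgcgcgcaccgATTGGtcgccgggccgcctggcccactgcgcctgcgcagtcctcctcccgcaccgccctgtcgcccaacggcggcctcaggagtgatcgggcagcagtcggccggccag

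Promoter windows of 300 bases, from 250 before to 50 after the start, were found for 34 of the 42 kinesins. KIF13B, KIF19, KIF21B, KIF26B, KIF27, KIF5A, KIFC2 and KIFC3 had no entry. TTTGAA or TTTAAA, searched on both strands, was present in 12 of 15 mitotic kinesins (80%), 2 of 11 transport kinesins (18.2%) and 0 of 8 other kinesins. The transport kinesins with the element were KIF5B, at -140 from the start, and KIF16B, at -241. Of all 27305 genes with a window, 27.9% held the element. Within 50 bases of the start, 11 of the 15 mitotic kinesins (73.3%) and 0 of the 11 transport kinesins had the element, against 9.41% of all genes. CCAAT, whose matches did not overlap those of the CHR in any kinesin, was present in 11 mitotic, 4 transport and 3 other kinesins, and in 39.7% of all genes. The E-box CACGTG, a sequence that c-Myc can bind, was present in 0 of the 34 kinesins and in 8.77% of all genes. KIF15, KIF2A, KIF2B and KIF2C were the mitotic kinesins without a CCAAT, KIF22, KIF2A and KIF2B those without a CHR, and KIF2A and KIF2B had neither element. A match describes the letters of the window and not a bound site.

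The libraries held between 17304864 and 23132102 reads on genes. PELP1 itself averaged 57.8 ± 2.14 CPM (reads scaled to library size) with control shRNA and 29.6 ± 0.876 CPM with PELP1 shRNA (SD, n = 3 each). The log2 fold change (log2FC), PELP1-KD over control, came to -0.97, with a standard error (SE) of 0.055 and an adjusted p of 1.48e-11. Here and in what follows, adjusted p-values come from the quasi-likelihood F-test of edgeR, adjusted over all tested genes by Benjamini and Hochberg's method, unless another tool is named. In bulk RNA of this kind, fewer cells expressing a gene and less RNA per cell cannot be told apart. The markers of the line were present in every library, with VIM between 1909 and 2291 CPM and CD44 between 827 and 1244 CPM. ESR1 and PGR had at most 2 reads in any library, while ERBB2 had between 109 and 128 CPM and EPCAM between 8.62 and 11.2 CPM. Of the 10 markers of leukocytes, endothelium, fibroblasts and neurons, PTPRC had no read, and 8 others stayed at 1.105 CPM or below. Of the 7 tested markers of the line, 4 were lower and 1 higher, where 24.2% of all tested genes were lower and 22.7% higher. CD44 had a mean of 121 RPKM (CPM per kilobase of exon) in control cells and 82.8 RPKM in PELP1-KD cells, and VIM 431 and 373 RPKM. In the same order, KRT7 had 69.5 and 81.6 RPKM, KRT18 87.26 and 75.35 RPKM, and KRT8 41.34 and 37.75 RPKM. COL1A1, a fibroblast collagen, had a mean of 0.595 RPKM in control cells and 1.84 RPKM in PELP1-KD cells, and the part of these markers in the results was not tested. Expression also differed by the base composition of the transcripts. Over 12254 tested genes other than kinesins, the deviation of log2 CPM from the gene's mean changed by -0.12, -0.031 and -0.024 per 10 percentage points of GC content in control replicates 1, 2 and 3, and by 0.036, 0.10 and 0.037 in PELP1-KD replicates 1, 2 and 3. Control replicate 1 and PELP1-KD replicate 2 thus stood apart from the others of their groups.

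Levels were compared between kinesins in RPKM, and the mitotic kinesins made up most of the total. The sum over all kinesins was 724 RPKM ± 17.8 (SD, n = 3) in control cells, of which the mitotic kinesins made up 67.5% ± 0.0588. The transport kinesins made up 30.6% ± 0.0553 and the other kinesins 1.85% ± 0.00506. KIF5B, the heavy chain of the ubiquitous conventional kinesin, had the highest mean level over all 6 replicates, at 87.7 RPKM. KIFC1, a minus-end motor that clusters centrosomes, followed at 84.0 RPKM, KIF2C, which depolymerizes microtubules at centromeres, at 64.1 RPKM, and KIF11 at 60.1 RPKM. KIF1C, which carries vesicles and mRNA, KIFC3, a minus-end motor found at cell junctions, and KIF3B, a motor subunit of intraflagellar transport, were the next most abundant transport kinesins, at 43.5, 29.7 and 23.0 RPKM.

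**Figure D1:**
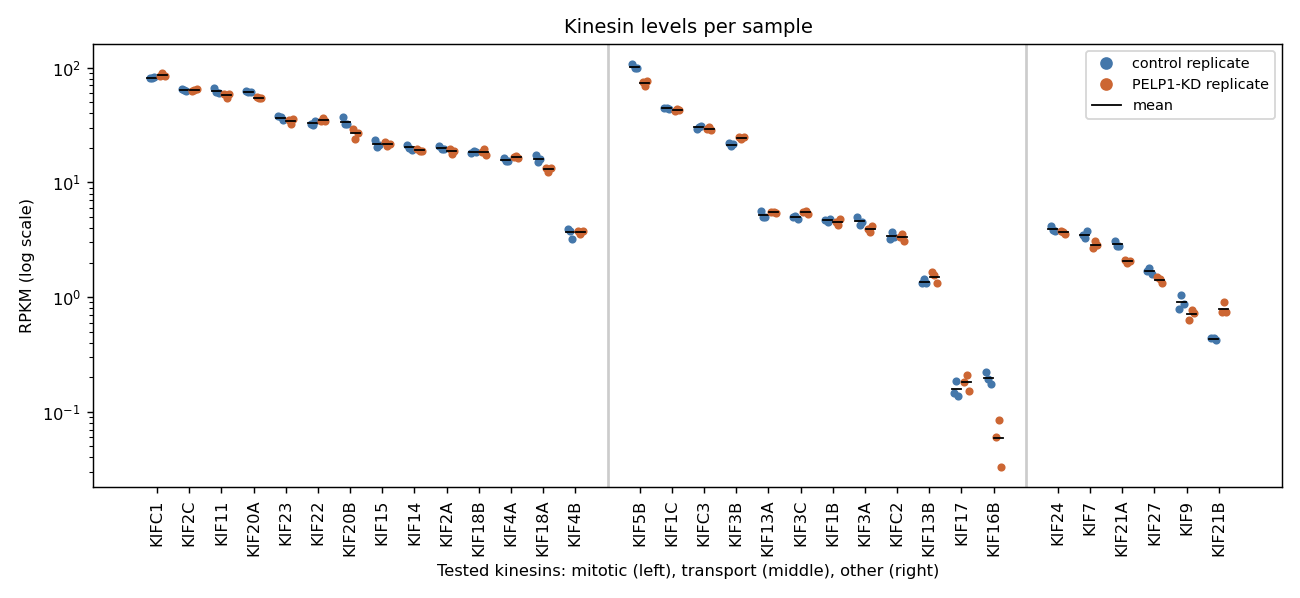
RPKM on a log scale for each of the 32 tested kinesins, with 1 point per replicate of control (blue) and PELP1-KD cells (orange) and a line for the mean of each group. Of the 14 mitotic kinesins, 13 lay above 10 RPKM and KIF4B below, while the transport kinesins ranged from KIF5B at a mean of 87.7 RPKM to KIF16B at 0.128 RPKM.

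The remaining 10 kinesins had too few reads to be tested. KIF1A, KIF2B, KIF19 and KIF26A had no read in any replicate, a depth at which 3 reads would correspond to between 0.13 and 0.173 CPM. KIF5A, a neuronal kinesin heavy chain, had no read in the control replicates and 2, 4 and 0 reads in PELP1-KD replicates 1, 2 and 3. KIF5C, another neuronal heavy chain, had between 3 and 9 reads, KIF25 between 0 and 7, KIF26B between 2 and 3, and KIF6 and KIF12 between 0 and 1. No difference in these genes was detectable at this depth. The neuronal transport kinesins KIF1A, KIF5A and KIF5C were therefore near or below the limit of detection, while KIF5B, KIF1C and KIF1B were well expressed.

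Between PELP1-KD and control cells, 16 of the 32 tested kinesins differed at an adjusted p-value below 0.05, where 46.9% of all tested genes differed. Of these, 12 kinesins were downregulated, where 24.2% of all tested genes were downregulated, and 4 were upregulated, against 22.7% of all tested genes. The median log2FC of the tested kinesins was -0.048, and that of all tested genes was 0.0014. The groups did not overlap in CPM for 19 of the 32 kinesins, where 55% of all tested genes had groups without overlap. A log2FC beyond 1 was reached by KIF16B, the sole kinesin among the 3.24% of tested genes past both limits, and a log2FC beyond 0.3 by 7 called kinesins, where 22.6% of tested genes did so. The downregulated count changed when libraries were left out. It was 7 without PELP1-KD replicate 2, and 10 without control replicate 1 and PELP1-KD replicate 2 together. The upregulated count was 2 without PELP1-KD replicate 2 and 2 without control replicate 2. The shares of all tested genes called in these fits were not determined, and fewer replicates lower the power for every gene.

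**Figure D2:**
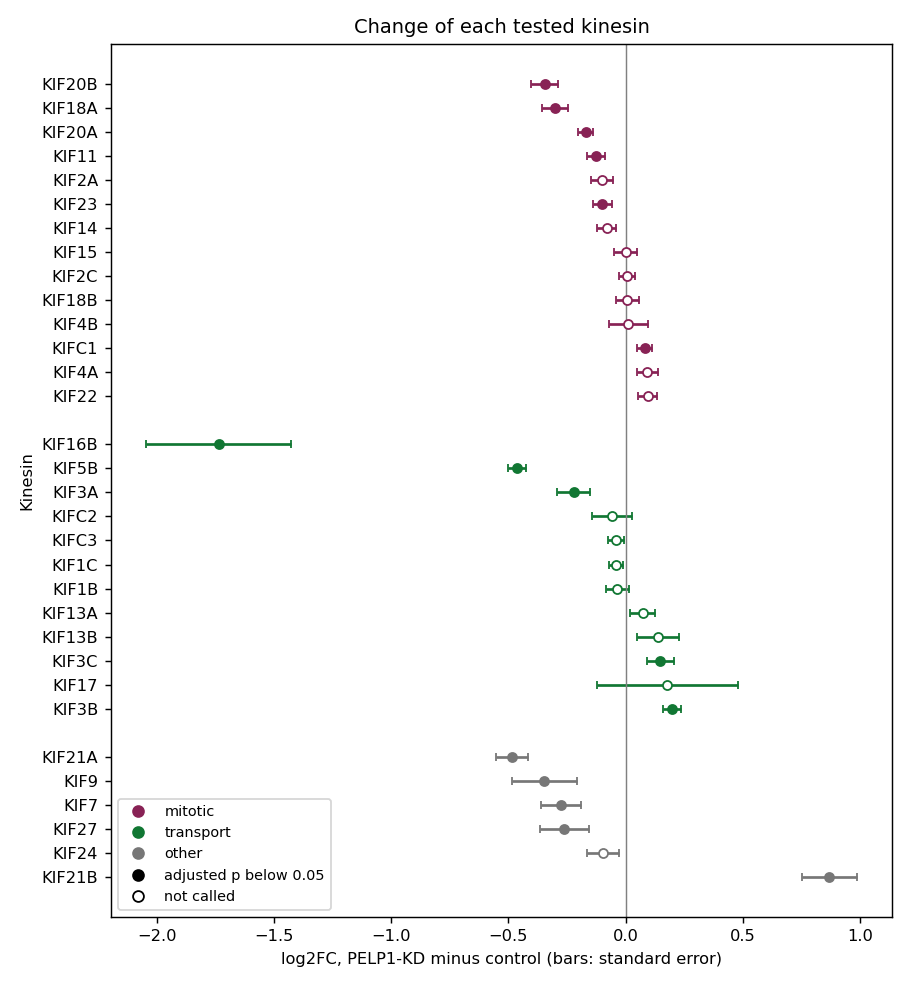
log2FC of each tested kinesin, PELP1-KD minus control, with bars for the standard error and filled points for an adjusted p-value below 0.05. The mitotic kinesins (top) lie between -0.34 for KIF20B and 0.095 for KIF22, while KIF16B among the transport kinesins (middle) at -1.74 and KIF21B among the other kinesins (bottom) at 0.87 lie farthest from 0.

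Among the 14 tested mitotic kinesins, 5 were downregulated and 1 was upregulated, where 24.2% of all tested genes were downregulated and 22.7% upregulated. Without PELP1-KD replicate 2, 3 were downregulated and 0 upregulated, and the shares of all tested genes in that fit were not determined. The falls were largest in KIF20B, KIF18A and KIF20A. KIF20B, a plus-end motor of the midzone and midbody in cytokinesis, had 4327, 4991 and 3939 reads with control shRNA and 3863, 3504 and 4383 with PELP1 shRNA, each in the order of replicates 1 to 3. Scaled to library size, this was 232 ± 20.3 CPM with control shRNA and 183 ± 17.2 CPM with PELP1 shRNA (SD, n = 3 each), and the groups did not overlap. Its log2FC was -0.34 (SE 0.057, adjusted p = 5.08e-05). KIF18A, which damps the movements of aligned chromosomes by limiting microtubule growth at the kinetochores, had 1367, 1594 and 1329 reads with control shRNA and 1225, 1234 and 1464 with PELP1 shRNA. Its CPM fell from 75.3 ± 5.36 to 61.0 ± 2.72 (SD, n = 3), a log2FC of -0.30 (SE 0.055, adjusted p = 1.27e-04), with no overlap between groups. Both genes have AT-rich transcripts, at 34.2% GC for KIF20B and 37.0% for KIF18A. After adjustment of the log2FC for GC content, length and expression over all tested genes, the values were -0.091 for KIF20B (adjusted p-value 0.209) and -0.13 for KIF18A (adjusted p-value 0.0594). With the replicate block in the same adjustment both were called, at -0.092 for KIF20B (adjusted p-value 0.0276) and -0.13 for KIF18A (adjusted p-value 0.0188).

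KIF20A, which brings the chromosomal passenger complex to the central spindle, showed the tightest replicates of the downregulated mitotic kinesins. It had 4164, 5558 and 4275 reads with control shRNA and 4298, 4559 and 5090 with PELP1 shRNA, or 244 CPM ± 2.80 against 217 CPM ± 3.43 (SD, n = 3). The log2FC was -0.17 (SE 0.032, adjusted p = 2.09e-04), the groups did not overlap, and the gene stayed downregulated in each alternative run, at log2FC between -0.18 and -0.11. The transcript of KIF20A has a GC content of 48.4%, close to the median of 48.1% over all tested genes. A small part of its exons, 3.34%, is shared with BRD8 on the opposite strand, and 1.72% with CDC23.

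KIF11, the bipolar motor that pushes spindle poles apart, had 5425, 6776 and 5241 reads with control shRNA and 5633, 5616 and 6725 with PELP1 shRNA. The log2FC was -0.12 (SE 0.039, adjusted p = 0.0124), a change of -8.3%. KIF23, the motor of the centralspindlin complex in cytokinesis, had a log2FC of -0.10 (SE 0.040, adjusted p = 0.0447), and its groups overlapped. Neither gene was called under library totals, without PELP1-KD replicate 2 or after adjustment for GC content, where the values turned to 0.071 for KIF11 and 0.041 for KIF23. KIF23 also lost its call by DESeq2 (adjusted p-value 0.0739) and without PELP1-KD replicate 1, control replicate 1 or control replicate 2.

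KIFC1 was the upregulated mitotic kinesin, with 4565, 6141 and 4956 reads with control shRNA and 5506, 6387 and 6707 with PELP1 shRNA. Its CPM was 273 ± 5.22 and 289 ± 9.13 (SD, n = 3), a log2FC of 0.082 (SE 0.033, adjusted p = 0.0485) that was not called by DESeq2 (adjusted p-value 0.0765). It was called in 6 of 16 alternatives and lost its call without control replicate 1 or 2 or PELP1-KD replicate 2 or 3, with a highest adjusted p-value of 0.271. Of the exon bases of KIFC1, 12.7% are shared with RPL12P1, a processed pseudogene on the opposite strand. KIF2C, the most abundant of the mitotic kinesins after KIFC1, had 4035, 5334 and 4024 reads with control shRNA and 4476, 4969 and 5645 with PELP1 shRNA, with groups that overlapped and a log2FC of 0.0053 (SE 0.034, adjusted p = 0.91). The other 7 mitotic kinesins did not pass the test either. KIF14, a partner of citron kinase in cytokinesis, had a log2FC of -0.081, and KIF2A, a microtubule depolymerase of spindle poles and neurons, had -0.10. KIF15, which backs up KIF11 in the spindle, was at 0.0013, KIF18B, which shortens astral microtubules, at 0.0081, and KIF22, a chromosome arm motor, at 0.095.

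KIF4A, a chromosome and midzone motor, and KIF4B, an intronless gene nearly identical to it, cannot be separated fully. Reads that aligned to several places were assigned to no gene. HTSeq's total for such alignments was between 32.5% and 32.9% of the sum of all its totals in each library, and how much of it concerns these genes is not known. The log2FC was 0.094 for KIF4A (adjusted p-value 0.0969) and 0.012 for KIF4B (adjusted p-value 0.916). The sum of both genes, which does not hold the unassigned reads, was 86.8 ± 3.51 CPM with control shRNA and 91.7 ± 0.396 CPM with PELP1 shRNA (SD, n = 3 each).

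Of the 12 tested transport kinesins, 3 were downregulated (25.0%) and 2 were upregulated (16.7%). These shares were near the 24.2% and 22.7% of all tested genes. KIF5B had 10677, 13173 and 10323 reads with control shRNA and 8658, 8659 and 10565 with PELP1 shRNA. Its level was 102 ± 4.99 RPKM with control shRNA and 73.7 ± 4.01 RPKM with PELP1 shRNA (SD, n = 3 each), with no overlap between groups, a log2FC of -0.46 (SE 0.038, adjusted p = 3.94e-09). KIF5B had the lowest p-value of the kinesins. The KIF5B transcript is AT-rich as well, at 39.1% GC, and after adjustment for GC content, length and expression it remained downregulated at -0.26, with the highest adjusted p-value over all alternatives at 1.53e-05.

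The transport kinesins as a whole were lower by about the amount that KIF5B was lower. Their summed level was 222 ± 5.28 RPKM with control shRNA and 195 ± 2.50 RPKM with PELP1 shRNA (SD, n = 3 each), and the replicates of the groups did not overlap. Without KIF5B, the sum was 120 RPKM ± 0.455 and 121 RPKM ± 1.53 (SD, n = 3), and the groups overlapped. The share of KIF5B in the transport kinesins was 45.8% ± 1.15 in control cells and 37.8% ± 1.59 in PELP1-KD cells.

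KIF16B, which moves early endosomes, showed the largest change of all tested kinesins at a low level of expression. It had 29, 34 and 24 reads with control shRNA and 9, 14 and 6 with PELP1 shRNA, so that each control replicate lay above each PELP1-KD replicate. The log2FC was -1.74 (SE 0.31, adjusted p = 1.06e-04). KIF16B passed the read filter through the control group, as only PELP1-KD replicate 2 reached 10 reads among the PELP1-KD replicates. With at least 10 reads required in every sample it was not tested, and 2 of 11 transport kinesins were then lower. It was downregulated in the other 15 alternatives, which used these same reads and are no separate support. These low counts limit the precision of the fold, which lay between -2.10 and -1.42 over the alternatives.

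The kinesin-2 motors act as heterotrimers of KIF3A, a second motor subunit KIF3B or KIF3C, and the accessory subunit KIFAP3, and their subunits moved in opposite directions. KIF3A had 583, 658 and 552 reads with control shRNA and 520, 540 and 674 with PELP1 shRNA, a log2FC of -0.22 (SE 0.071, adjusted p = 0.0148). KIF3B rose from 2276, 2866 and 2321 reads to 2953, 3125 and 3559, a log2FC of 0.20 (SE 0.038, adjusted p = 2.32e-04). KIF3C, with 541, 735 and 550 reads with control shRNA and 694, 766 and 805 with PELP1 shRNA, had a log2FC of 0.15 (SE 0.057, adjusted p = 0.0404). In each of the 3 genes the groups did not overlap once scaled to library size. The level of KIF3B over that of KIF3A, as a ratio of RPKM, was 4.39, 4.90 and 4.73 in the control libraries, replicates 1 to 3, and 6.38, 6.51 and 5.94 in those with PELP1 shRNA. KIFAP3 had a log2FC of -0.23 (SE 0.070, adjusted p = 0.00986), close to that of KIF3A. Its ratio to KIF3A was 1.16 ± 0.189 in control cells and 1.16 ± 0.0541 in PELP1-KD cells (SD, n = 3). KIF3B was called in all alternatives, whereas KIF3A lost its call under library totals (adjusted p-value 0.0511), after adjustment for GC content (-0.080, adjusted p-value 0.386) and without control replicate 1 (adjusted p-value 0.0631) or PELP1-KD replicate 2 (adjusted p-value 0.0795), and KIF3C was not called by DESeq2 (adjusted p-value 0.116). KIF3C was called in 6 of 16 alternatives, and leaving out any replicate but control replicate 1 ended its call. After adjustment for GC content KIF3C also lost its call, at 0.084 (adjusted p-value 0.249). KIF17, the homodimeric kinesin-2 motor of cilia and dendrites, had between 11 and 20 reads and did not pass the test.

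KIF17 included, 7 tested transport kinesins did not pass the test, and the abundant ones among them were measured with narrow errors. KIF1C had 6398, 8606 and 6712 reads with control shRNA and 6978, 8063 and 8651 with PELP1 shRNA, a log2FC of -0.041 (SE 0.030, adjusted p = 0.282). KIFC3 had 4712, 6682 and 5248 reads with control shRNA and 5432, 6236 and 6435 with PELP1 shRNA, a log2FC of -0.041 (SE 0.035, adjusted p = 0.351). KIF1B, which carries mitochondria and synaptic vesicle precursors, was at -0.035. KIF13A, which carries recycling endosomes and melanosome cargo, was at 0.074, KIF13B at 0.14, and KIFC2 at -0.056. For KIFC2, 17.8% of the exon bases are shared with FOXH1 on the opposite strand, and how strand was used in the counting is not given in the sources used here.

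**Figure D3:**
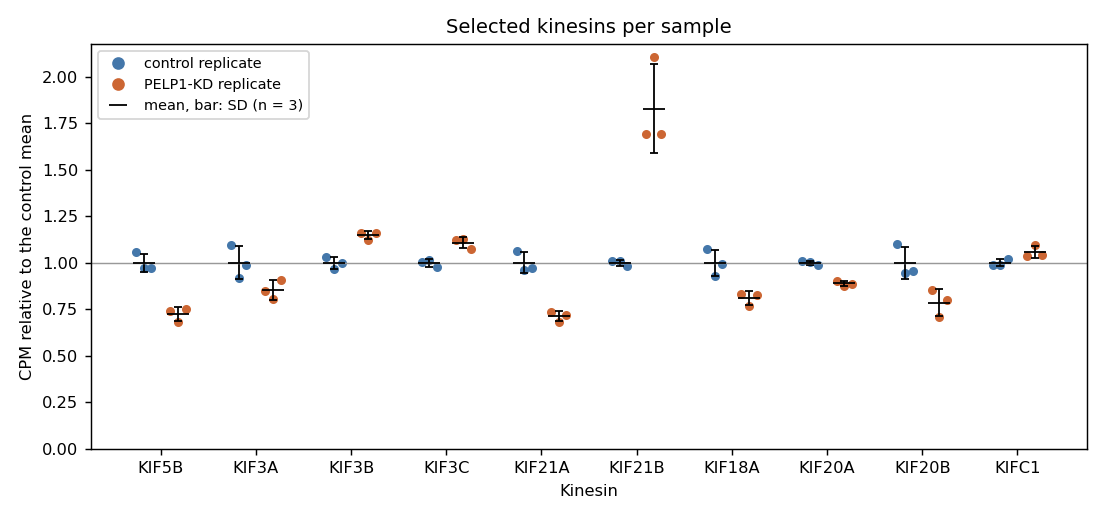
CPM relative to the mean of the control replicates for 10 kinesins chosen for the calls described, with 1 point per replicate and the mean and SD of each group (n = 3). PELP1-KD replicates lie below all control replicates for KIF5B, KIF3A, KIF21A, KIF18A, KIF20A and KIF20B and above them for KIF3B, KIF3C, KIF21B and KIFC1. The choice used these same values, so the separation is no separate support, and 55% of all tested genes had groups without overlap.

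KIF21A and KIF21B, paralogs that slow the growth of microtubule ends, changed in opposite directions. KIF21A had 526, 639 and 503 reads with control shRNA and 418, 426 and 496 with PELP1 shRNA, or 2.89 RPKM ± 0.165 against 2.06 RPKM ± 0.0759 (SD, n = 3). Its log2FC was -0.48 (SE 0.068, adjusted p = 6.16e-06). KIF21B had 90, 121 and 92 reads with control shRNA and 174, 237 and 210 with PELP1 shRNA, or 0.434 RPKM ± 0.00674 against 0.795 RPKM ± 0.104. Its log2FC was 0.87 (SE 0.12, adjusted p = 4.22e-06), the largest rise among the tested kinesins. As a ratio of RPKM, KIF21B over KIF21A was 0.142, 0.158 and 0.152 in the control libraries, replicates 1 to 3, and 0.347, 0.463 and 0.352 in those with PELP1 shRNA. KIF21A remained the more abundant paralog in each replicate. The transcripts differ in base composition, with 42.1% GC in KIF21A and 59.7% in KIF21B, and after adjustment for it the log2FC was -0.40 for KIF21A and 0.74 for KIF21B. Both were called in each of the 16 alternatives.

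Of the remaining members, 4 were tested in addition to the KIF21 pair. KIF7, a regulator of Hedgehog signaling at the tip of the cilium, had a log2FC of -0.28 (adjusted p-value 0.0103), KIF27, its paralog, had -0.26 (adjusted p-value 0.0471), and KIF9, a motor of motile cilia, had -0.35 (adjusted p-value 0.0485). KIF9 had 78, 138 and 90 reads with control shRNA and 72, 96 and 101 with PELP1 shRNA, and KIF27 and KIF9 were not called by DESeq2 (adjusted p-values 0.181 and 0.182). KIF27 was called in 5 of 16 alternatives and, of those leaving out 1 replicate, only without control replicate 3, and KIF9 was called in 8 of 16 and only without control replicate 1. KIF7 lost its call without PELP1-KD replicate 1 or control replicate 3, with an adjusted p-value of at most 0.0590. Their values are uncertain for another reason: 14.9% of the exon bases of KIF9 are shared with KIF9-AS1, 11.8% of those of KIF7 with TICRR and 8.58% of those of KIF27 with an antisense gene. KIF24, a depolymerase at the mother centriole, did not pass the test (log2FC -0.098, adjusted p-value 0.258).

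The contrast between mitotic and transport kinesins was measured on the median gene and on the summed level. The median log2FC was -0.040 over the 14 mitotic and -0.038 over the 12 transport kinesins tested. Downregulated genes made up 35.7% of the mitotic and 25.0% of the transport kinesins, beside 24.2% of all tested genes. This order turned after adjustment for GC content, length and expression, where 1 of 14 mitotic kinesins (7.14%) and 4 of 12 transport kinesins (33.3%) were lower, beside 19.6% of all genes so adjusted. The mitotic median minus the transport median was -0.0020 before and 0.081 after that adjustment. The summed level of the mitotic kinesins was 489 ± 12.1 RPKM with control shRNA and 470 ± 5.83 RPKM with PELP1 shRNA (SD, n = 3 each), a change of -3.87%, against -12.1% for the transport kinesins. All sums, with or without KIF5B, rest on TMM factors of 0.9776 to 0.9865 in control and 1.016 to 1.018 in PELP1-KD replicates. A change of a few percent depends on this scaling, and sums under library totals were not computed. With library totals the mitotic median log2FC was 0.0097. The mitotic over the transport sum was 2.21, 2.21 and 2.20 in the control libraries, replicates 1 to 3, and 2.42, 2.41 and 2.40 in those with PELP1 shRNA. This ratio followed KIF5B, as the transport sum without it shows. With KIF2A counted among the other kinesins and KIF21A and KIF21B among the transport kinesins, the medians were 0.00132 and -0.0379.

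Base composition moved with the log2FC. GC content was taken from the longest transcript of each gene, and 17 tested kinesins lay at or below the median of 48.1% over all tested genes. Of these 17, 9 were downregulated and 1 was upregulated, against 35.4% and 13.8% of all tested genes on that side. Of the 15 kinesins above the median, 3 were downregulated and 3 were upregulated, against 14.3% and 32.0% of all genes there. Across the 14 mitotic kinesins, which share the same libraries, log2FC and GC content correlated at a Pearson's r of 0.73 and a Spearman's rho of 0.75. The values were 0.36 and 0.39 across the 12 transport kinesins and 0.35 and 0.52 across all 32. Over 12286 tested genes they correlated at 0.24 and 0.34. Genes are not independent replicates, and these correlations are descriptions. After adjustment for GC content, length and expression, 1 mitotic kinesin (KIF20A) was downregulated and 2 (KIF15 and KIF4A) were upregulated, where 19.6% of all genes were lower and 23.8% higher, and the median log2FC of the mitotic kinesins was 0.038. Among the transport kinesins, KIF13A was then newly called higher and KIFC2 and KIFC3 lower, while KIF3A and KIF3C lost their calls.

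**Figure D4:**
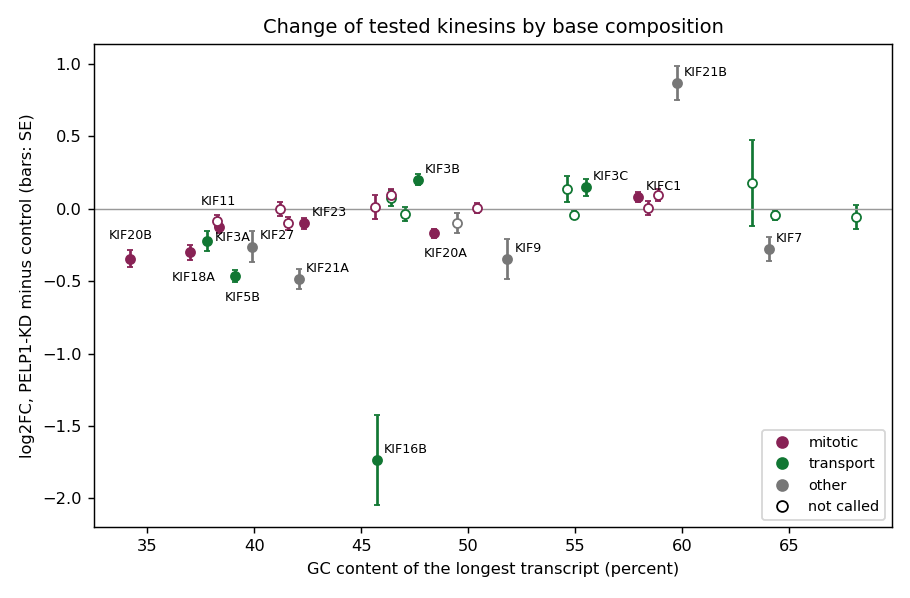
log2FC of the 32 tested kinesins, PELP1-KD minus control with bars for the standard error, against the GC content of the longest transcript in percent; filled points had an adjusted p-value below 0.05. The downregulated mitotic kinesins lie between 34.2% and 48.4% GC, and KIF21B, KIF3C and KIFC1, which were upregulated, lie between 55.5% and 59.7%, with KIF3B, also upregulated, at 47.6%.

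Of 20 partners of the mitotic kinesins, 10 were downregulated and 0 upregulated at an adjusted p-value below 0.05 by edgeR, with 1 higher at an unadjusted p-value below 0.05 and 0 higher by DESeq2, where 24.2% of all tested genes were downregulated and 22.7% upregulated. Their median log2FC was -0.073. ECT2, the exchange factor that centralspindlin recruits for cytokinesis, had a log2FC of -0.39 (adjusted p-value 4.08e-07), and CENPE, the kinesin that brings chromosomes to the metaphase plate, had 2874, 3736 and 2828 reads with control shRNA and 2647, 2516 and 3064 with PELP1 shRNA, a log2FC of -0.36 (adjusted p-value 1.69e-06). ASPM, a spindle pole protein, had -0.30 (adjusted p-value 1.94e-06). Of 18 proliferation genes without kinesins, 10 were downregulated and 1 was upregulated (24.2% and 22.7% of all tested genes), with a median of -0.11, and TTK, CDC20 and NUF2 showed the largest changes, at -0.38, -0.34 and -0.33. The median GC content was 46.7% in the partner list and 42.8% in the proliferation list, and after adjustment for GC content, length and expression 4 genes were lower and 2 higher in the partner list and 4 lower and 3 higher in the proliferation list. The shares of all genes under that adjustment were 19.6% lower and 23.8% higher, and those of the proliferation list were 22.2% and 16.7%.

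Of 16 regulators that act on CHR or CCAAT promoters, 7 were downregulated and 2 were upregulated, against 24.2% and 22.7% of all tested genes, with a median log2FC of -0.11. After adjustment for GC content, length and expression, 5 (31.2%) were lower and 2 (12.5%) higher, beside 19.6% and 23.8% of all genes so adjusted. The adjusted median was -0.033, in a list with a median GC content of 44.3%. NFYB, a subunit of the CCAAT-binding factor, had a log2FC of -0.58 (adjusted p-value 2.82e-07), and LIN9, a MuvB subunit, had -0.38 (adjusted p-value 2.08e-04). MYBL2, which joins MuvB to activate late cell cycle genes, had 0.49 (adjusted p-value 9.27e-10).

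The cargo adaptors and dynein, which work with the transport kinesins, included called genes in both directions, where 24.2% of all tested genes were downregulated and 22.7% upregulated. Of 18 tested adaptors and light chains, 8 were downregulated and 6 were upregulated, with a median log2FC of -0.10. After the adjustment for GC content, 6 of the 17 with a GC value were lower (35.3%) and 4 higher (23.5%), with a median of 0.011. The shares of all genes so adjusted were 19.6% lower and 23.8% higher. KLC3, a kinesin light chain, had 39, 72 and 60 reads with control shRNA and 143, 183 and 143 with PELP1 shRNA, a log2FC of 1.29 (SE 0.16, adjusted p = 1.18e-06). MAPK8IP1, a scaffold that binds the light chains, had -0.78 (adjusted p-value 2.75e-06), and BICD1, an adaptor of dynein, had -0.54 (adjusted p-value 9.39e-04). Of 22 tested genes of dynein, dynactin and their regulators, which drive transport toward the minus ends, 8 were downregulated and 6 were upregulated, with a median log2FC of -0.047. After the adjustment, 5 (22.7%) were lower and 7 (31.8%) higher, beside the same 19.6% and 23.8% of all genes, and the median was 0.031. PAFAH1B1, the dynein regulator LIS1, had -0.42 (adjusted p-value 1.34e-08), DYNC1H1, the dynein heavy chain, had -0.30 (adjusted p-value 3.85e-08), and ACTR1B, a dynactin subunit, had 0.28 (adjusted p-value 5.14e-05).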

How the data were processed

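Reads were processed by the authors, whose processing notes name bcl2fastq, TopHat2, SAMtools and HTSeq without versions and the build hg19; the annotation and the strand setting are not given in the sources used here. The deposited counts are whole reads per gene symbol and replicate, without normalization. HTSeq's closing totals were left out of library sizes. Of the sum of all HTSeq totals in each library, no feature took between 7.64% and 8.20% and ambiguous between 0.657% and 0.688%.

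From the counts, 12796 genes passed edgeR's filterByExpr (minimum of 10 counts), with TMM scaling. PELP1-KD and control replicates were compared by quasi-likelihood F-tests in edgeR 4.0.16, and p-values were adjusted by Benjamini and Hochberg's method across these genes. Standard errors were derived from the log2FC and its F statistic. RPKM used the union of exons and GC content the longest transcript in GENCODE 29, on GRCh38 and not on hg19, so exon overlaps are those of GRCh38. Of the symbols, 19747 matched by name and 1728 by a RefSeq synonym, and 1753 had no length. Adjustment for base composition regressed the log2FC on GC content, its square, log2 length and log2 CPM. DESeq2 1.42.0, voom in limma 3.58.1 and other settings were alternatives. On simulated counts with 12699 genes, 94 of 100 genes changed by a log2FC of 1 and 70 of 100 changed by 0.3 were called, and 9 of 12499 unchanged genes. These counts were drawn independently, with few changed genes and no trend by GC content, so the rates need not hold for the real libraries.

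The kinesins and all lists were chosen with earlier results of these data known, and the lists were written from general knowledge. Reads were given for called kinesins with a log2FC beyond 0.3 in size and for the 4 most abundant mitotic and 4 most abundant transport kinesins; reads of KIF3A, KIF3C and the ratios were added after the values were seen. From the other lists, the 3 largest called changes were named. Replicate numbers were not used as pairs in the main test. Deviations of same-numbered replicates correlated at 0.039, 0.065 and -0.078, which cannot exclude pairing, and a fit with a replicate block is given as an alternative. Floors given as the CPM of 3 reads cover counting error only, whereas SDs and SEs reflect the spread between replicates. No molecular identifiers were used, so reads may be PCR copies.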

Additional observations from a re-analysis of the deposited data

How the results depend on the processing

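RLE size factors and voom left all counts and medians close to the values reported. With library totals, which moved the median of all tested genes to 0.051, 7 kinesins were lower, 3 mitotic kinesins lower and 3 higher, and the medians were 0.0097 (mitotic) and 0.012 (transport), while KIF1B (0.014), KIF1C (0.0089) and KIFC3 (0.0086) changed sign. DESeq2 and the test without a filter each gave 2 kinesins higher, 0 of them mitotic and 1 transport. With at least 10 reads in every sample 0 mitotic kinesins were higher, KIF15 was at -0.0011, and KIF16B was not tested. The fit with a replicate block gave 2 mitotic kinesins higher and kept the 16 calls. Adjusted for GC content, length and expression, 1 mitotic kinesin was lower and 2 higher, the mitotic median was 0.038, and it lay 0.081 above the transport median. The signs changed of KIF11 (0.071), KIF14 (0.10), KIF17 (-0.064), KIF18B (-0.060), KIF1B (0.036), KIF23 (0.041) and KIF2A (0.016). With the replicate block as well, 3 were lower and 3 higher, the median was 0.037 and the difference 0.069, and the same genes were at 0.071, 0.10, -0.040, -0.060, 0.033, 0.041 and 0.015. By DESeq2, 2637 of the 12796 tested genes were lower and 2260 higher. Apart from DESeq2 and the GC adjustment without the replicate block, the shares of all tested genes called were not determined for these alternatives. The causes were not tested.

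Leaving out 1 replicate gave 7 to 11 kinesins lower and 2 to 5 higher, 3 to 6 mitotic kinesins lower and 0 to 2 higher, 2 to 3 transport kinesins lower and 1 to 3 higher, mitotic medians from -0.091 to -0.027, transport medians from -0.032 to -0.010 and differences of medians from -0.067 to 0.0057. Without both control replicate 1 and PELP1-KD replicate 2, an alternative chosen after seeing the data, 3 mitotic kinesins were lower, KIF18B was at -0.058 and KIF1B at 0.022. Over these 7 alternatives, values on both sides of 0 were found for KIF15 (-0.040 to 0.088), KIF18B (-0.058 to 0.049), KIF1B (-0.076 to 0.022), KIF2C (-0.017 to 0.026), KIF4B (-0.068 to 0.093) and KIFC2 (-0.15 to 0.0088). The shares of all tested genes called in these 7 were not determined, and fewer replicates lower the power for every gene. KIF5B, KIF3B, KIF20A, KIF21A and KIF21B were called in all 16 alternatives. With 3 replicates a group, the SE of the log2FC lay between 0.032 (KIF20A) and 0.084 (KIF4B) among the mitotic kinesins, as large as several of their changes.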
